A study of Mus musculus with 12 samples.

Results

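Complement is a set of plasma and tissue proteins that tag cells and debris for removal. In the classical pathway, C1q recognises the target and C4 and C2 form the enzyme that cleaves C3, and in the alternative pathway C3b binds factor B to form a second enzyme that cleaves more C3. Factor I inactivates the bound fragments, and myeloid cells sense the released C3a through its receptor. In the retina, C1q is made mostly by microglia, and complement is known for tagging synapses and injured neurons. The 9 genes described here were chosen by symbol among the 25655 genes of the deposited tables. They are C1qa, C1qb, C1qc, C4b and C2 of the classical pathway, C3 and Cfb of the alternative pathway, the regulator Cfi and the receptor C3ar1. C3 is shared by both pathways and is grouped here with Cfb.

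RNA came from the whole retina of C57BL/6J mice (C57BL/6 in the strain label), given by the sample labels as 8 to 10 weeks old, 2 days after the left optic nerve was crushed (ONC) and the eye received a single intravitreal injection. The injections held PBS as control, the statin fluvastatin, an inhibitor of HMG-CoA reductase, or matrix-bound nanovesicles (MBV), vesicles isolated from the extracellular matrix of porcine urinary bladder. Every group, controls included, had the crush and an injection, so no uninjured level can be given. There were 3 libraries for each of these 3 groups, and the combined treatment is not analysed here. The study prepared its samples in triplicate and calls them biological replicates, and the p-values measure the spread between these samples.

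The libraries held 21349516 to 30992040 counts on genes. The summed CPM (counts scaled to library size by TMM) of 5 photoreceptor markers, Gnat1, Sag, Pde6b, Arr3 and Opn1mw, was 9479 to 13600 over the 9 libraries. The library numbers in the labels form 2 sets, with PBS in one and fluvastatin and MBV in the other, so set and treatment cannot be told apart in any comparison to PBS, whereas fluvastatin and MBV lie within one set. Both comparisons to PBS also use the same 3 PBS libraries. Summed pigment cell markers were 95.9 to 137 CPM with PBS, 43.1 to 46.4 after fluvastatin and 29.2 to 57.6 after MBV. Summed lens markers were 0.874 to 4.52, 2.38 to 16.1 and 46.8 to 118 CPM, and erythroid markers 6.34 to 7.99, 12.8 to 16.1 and 13.4 to 16.3 CPM, in the same order of groups. MBV replicate 3 stood apart from the other 8 libraries in several of the genes below, and the log2 fold changes that move most with it are given with and without it.

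The 3 C1q genes, whose chains assemble into the recognition molecule of the classical pathway, lie side by side on the minus strand of chromosome 4 of GRCm39. C1qb (136607440 to 136613498), C1qc (136617115 to 136620376) and C1qa (136623228 to 136626114) are separated by 3616 and 2851 bp. The stretches upstream of C1qb and C1qc are shown because both genes were lowest in PBS replicate 2 and highest in MBV replicate 3. Each window runs from 220 to 21 bases before the RefSeq start of the gene on its own strand (minus), taken from RefSeq promoters on GRCm38.p6, at chr4:136886221-136886420 for C1qb and chr4:136892935-136893134 for C1qc. Capitals mark matches, on either strand, to an NF-kB motif (GGGNNNNNCC) or to GAGGAA, the core bound by ETS factors such as PU.1 of myeloid cells. Overlapping matches are joined.
C1qb: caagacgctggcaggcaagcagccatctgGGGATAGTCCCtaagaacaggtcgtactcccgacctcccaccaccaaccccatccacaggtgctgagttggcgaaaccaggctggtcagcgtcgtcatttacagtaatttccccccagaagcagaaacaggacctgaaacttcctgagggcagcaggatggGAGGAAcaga
C1qc: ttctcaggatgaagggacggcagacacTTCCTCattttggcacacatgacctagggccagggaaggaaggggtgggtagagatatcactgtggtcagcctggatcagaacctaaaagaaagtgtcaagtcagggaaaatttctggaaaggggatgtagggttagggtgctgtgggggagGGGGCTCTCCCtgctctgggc
The ETS motif lay 30 bases before the start of C1qb on its own strand and 193 bases before the start of C1qc on the other strand. It occurs in 18.8% and the NF-kB motif in 40.0% of the 32851 RefSeq promoter windows of the same length, so such matches are common. Of the 9 genes, 4 had a promoter in that table (C1qb, C1qc, C3 and C3ar1).

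C1qa had 7.44, 5.76 and 7.83 CPM in the 3 PBS libraries, 7.04, 7.74 and 8.01 after fluvastatin and 8.22, 7.72 and 11.2 after MBV. The 3 groups overlapped, and the highest library was MBV replicate 3. C1qb had 7.05, 6.62 and 9.04 CPM with PBS, 6.92, 8.56 and 8.23 after fluvastatin and 8.95, 8.18 and 10.4 after MBV. C1qc had 9.55, 8.19 and 12.1 CPM with PBS, 9.27, 10.3 and 8.95 after fluvastatin and 10.7, 8.86 and 14.4 after MBV. All 3 genes were lowest in PBS replicate 2 and highest in MBV replicate 3. Within a library, C1qa counts were 0.866 to 1.07 times the C1qb counts and 0.648 to 0.896 times the C1qc counts. C1qb counts were 0.723 to 0.923 times the C1qc counts.

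None of the 3 C1q genes passed an FDR of 0.05 in any comparison in edgeR's quasi-likelihood F-test, adjusted by Benjamini-Hochberg. After fluvastatin, compared to PBS, the log2 fold changes were 0.12, 0.07 and -0.06 for C1qa, C1qb and C1qc, with standard errors of 0.129, 0.137 and 0.135. The 95% intervals of these log2 fold changes together spanned -0.36 to 0.40. After MBV, compared to PBS, the values were 0.36, 0.27 and 0.18, with 95% intervals that together spanned -0.24 to 0.73. Without MBV replicate 3, they were 0.18, 0.17 and -0.03. Between MBV and fluvastatin, the log2 fold changes were 0.25, 0.21 and 0.25 in the same order of genes, and 0.07, 0.12 and 0.04 without MBV replicate 3. The summed CPM of 9 microglia markers was 72.6 to 84.3 with PBS, 63.9 to 75.1 after fluvastatin and 68.8 to 76.7 after MBV. In whole retina, fewer cells of a type and less RNA per cell cannot be told apart.

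Among the 15022 genes with a mean of at least 10 counts, complement genes left out, the 5 whose log2(CPM + 0.5) was most like the mean profile of the C1q genes were Coro1a (Pearson r 0.981), Cd68 (0.967), Lcp1 (0.962), Cd52 (0.957) and Vav1 (0.954). All 5 are known from leukocytes, and Cd68 is a lysosomal protein of macrophages and microglia. These correlations are over 9 libraries that share their depth and group structure. They were 0.887 to 0.952 over the 8 libraries other than MBV replicate 3.

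C4b encodes the component that C1s cleaves and that joins C2 in the classical enzyme (chromosome 17, 34947354 to 34962856, minus strand). Its near-identical copy C4a has no row in the tables, so reads shared by the pair may be counted on C4b. C4b had 47.4, 53.3 and 83.2 CPM with PBS, 61.1, 19.6 and 31.0 after fluvastatin and 38.5, 34.9 and 55.4 after MBV. Fluvastatin replicate 1 lay within the PBS range, and the other two fluvastatin libraries lay below it. The log2 fold change compared to PBS was -0.72 (SE 0.336, FDR 0.168) after fluvastatin and -0.52 (SE 0.220, FDR 0.116) after MBV in edgeR. Without Fluvastatin replicate 1 it was -1.28 (FDR 0.00114), and without MBV replicate 3 it was -0.74 compared to PBS (FDR 0.00884, but 0.155 in 1 fit of the 8 libraries other than MBV replicate 3, an alternative chosen after seeing the data). Without PBS replicate 3 it was -0.44 after fluvastatin (FDR 0.428) and -0.24 after MBV (FDR 0.367), and without Fluvastatin replicate 2 it was -0.41 (FDR 0.431). Fluvastatin replicate 1 and MBV replicate 3 were also the highest of their groups in Apoe, a lipid carrier of Müller glia, at 257 against 165 and 119 CPM and 294 against 167 and 118 CPM. The PBS libraries had 297 to 329 CPM of Apoe, and its part in the C4b values was not tested. The whole list of 6 Müller glia markers summed to 2959 to 3627 CPM with PBS, 1499 to 2878 after fluvastatin and 1313 to 2869 after MBV.

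C2 encodes the protease that completes the C3-cleaving enzyme of the classical and lectin pathways (chromosome 17, 35081580 to 35117241, minus strand). It had 2.66, 2.29 and 2.39 CPM with PBS, 1.36, 1.50 and 1.19 after fluvastatin and 1.50, 1.19 and 1.41 after MBV. These values rest on 63 to 82 counts per library with PBS, 28 to 40 after fluvastatin and 26 to 41 after MBV. Every treated library lay below every PBS library, and the treated groups overlapped each other. C2 fell by 0.86 on the log2 scale after fluvastatin (SE 0.191, FDR 0.0116, 1.81-fold lower) and by 0.85 after MBV (SE 0.194, FDR 0.0125, 1.80-fold lower) compared to PBS in edgeR. Between MBV and fluvastatin the difference was 0.02, with a 95% interval of -0.50 to 0.54.

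C2 was the only one of the 9 genes to pass an FDR of 0.05 in these comparisons. Of all genes tested, 19.6% passed after fluvastatin and 26.1% after MBV compared to PBS, so 1 of 9 is not above that background. Genes whose 3 treated libraries all lay below the 3 PBS libraries made up 19.3% of all genes after fluvastatin, where C2 and Cfi did so, and 21% after MBV, where C2 alone did. The call of C2 was lost without PBS replicate 1, its highest library. The log2 fold change was then -0.79 (FDR 0.0628) after fluvastatin and -0.78 (FDR 0.0616) after MBV. Calls over all genes also fell in these fits, from 3687 to 1726 and from 4937 to 2711. Summed pigment cell markers separated the PBS from the treated libraries in the same way as C2. This split was not particular to pigment cells. Summed Müller glia markers were 2959 to 3627 CPM with PBS and reached at most 2878 after fluvastatin and 2869 after MBV. Of the 6 pigment cell markers, 4 (Pmel, Tyrp1, Mlana and Dct) passed as lower in both comparisons to PBS. The other 2 (Rpe65 and Lrat) had log2 fold changes above 0 in both. The part of pigment cells or of Müller glia in the C2 values was not tested. C2 overlaps Zbtb12 on the opposite strand, which had 217 to 354 counts per library, more than C2 itself. The strand setting of the counting is not given in the sources used here, so reads of the overlap cannot be told apart. Zbtb12 had log2 fold changes of -0.10 (FDR 0.455) after fluvastatin and -0.14 (FDR 0.288) after MBV. Gm20547, which overlaps C2 and Cfb on their own strand, had 3 counts over all 9 libraries.

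**Figure D1:**
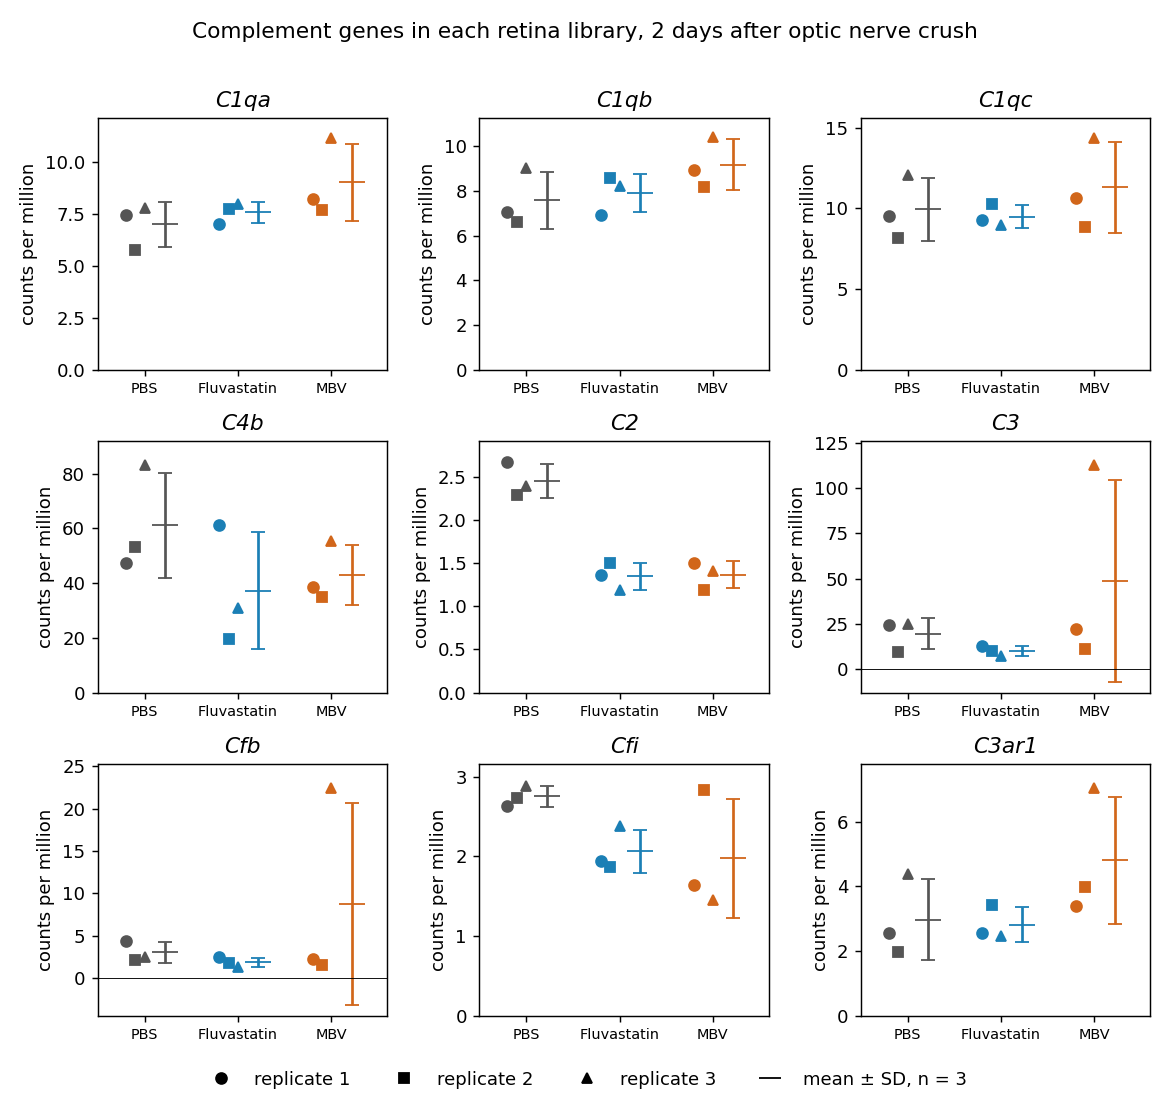
CPM (vertical axis, its own linear scale in each panel) of the 9 complement genes in each library with PBS, fluvastatin and MBV, 3 libraries a group, with the mean and SD beside the points. The 6 treated libraries sit at 1.19 to 1.50 CPM of C2, below the PBS libraries at 2.29 to 2.66, and MBV replicate 3 stands far above all others in C3 (113 CPM) and Cfb (22.5 CPM).

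C3, whose cleavage is the point where all complement pathways meet, lies on chromosome 17 (57510970 to 57535136, minus strand). Its upstream window is shown because C3 had the widest range of the 9 genes together with Cfb. It runs from 220 to 21 bases before the RefSeq start, at chr17:57228157-57228356 of GRCm38.p6 on the minus strand, with matches to the NF-kB motif (GGGNNNNNCC) and to a C/EBP motif (TTGCNNAA) in capitals.
C3: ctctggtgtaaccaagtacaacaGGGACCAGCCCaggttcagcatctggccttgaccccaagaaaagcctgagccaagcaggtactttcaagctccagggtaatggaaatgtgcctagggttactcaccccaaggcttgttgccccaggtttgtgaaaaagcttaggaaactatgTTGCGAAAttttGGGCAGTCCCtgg
NF-kB and C/EBP are factors of the acute inflammatory response. The NF-kB matches lay at 197 to 187 and at 33 to 24 bases before the start, and the C/EBP match, a motif found in 7.76% of promoters, at 45 to 38 bases. No interferon response element (GAAANNGAAA, in 2.30% of promoters, or TTCNNNGAA, in 5.50%) was found on either strand of the 4 windows. The window of C3ar1 held none of the motifs searched.

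C3 had 24.1, 9.45 and 24.8 CPM with PBS, 12.8, 9.91 and 6.997 after fluvastatin and 21.8, 11.1 and 113 after MBV. Cfb, the protease of the alternative pathway enzyme (chromosome 17, 35075350 to 35081494, 85 bp from C2), had 4.42, 2.15 and 2.55 CPM with PBS, 2.43, 1.83 and 1.36 after fluvastatin and 2.19, 1.55 and 22.5 after MBV. In both genes the fluvastatin libraries overlapped the PBS range from below, and a single MBV library was far above all the rest. The counts behind these values in MBV replicate 3 were 2637 for C3 and 526 for Cfb. Relative to the mean of MBV replicates 1 and 2, MBV replicate 3 was 6.84-fold higher in C3 and 12.01-fold higher in Cfb, and it exceeded the highest other library 4.55-fold and 5.09-fold. C2, the neighbour of Cfb, was at 1.41 CPM there, within the range of the other MBV libraries. C3 counts were 4.40 to 9.95 times the Cfb counts within a library, with a median of 5.41.

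After MBV, compared to PBS, the log2 fold change was 1.31 for C3 (SE 0.724, 95% interval -0.32 to 2.94, FDR 0.223) and 1.50 for Cfb (SE 0.857, 95% interval -0.43 to 3.44, FDR 0.238) in edgeR. Without MBV replicate 3, both changed sign, to -0.23 for C3 (FDR 0.649) and -0.70 for Cfb (FDR 0.110). After fluvastatin, compared to PBS, the values were -0.97 for C3 (SE 0.320, FDR 0.0582) and -0.70 for Cfb (SE 0.299, FDR 0.132). The C3 value passed when Fluvastatin replicate 1 (-1.19, FDR 0.0161) or PBS replicate 2 (-1.30, FDR 0.00425) was left out. Over the 6 libraries left out in turn, the C3 value ranged from -1.30 to -0.76. Cfb passed without Fluvastatin replicate 1 (-0.93, FDR 0.0444), and was -0.32 (FDR 0.511) without PBS replicate 1 and -0.52 (FDR 0.327) without Fluvastatin replicate 3.

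Between MBV and fluvastatin, within one set of library numbers, the log2 fold change was 2.29 for C3 (SE 0.717, p-value 0.0102, FDR 0.345) and 2.22 for Cfb (SE 0.878, p-value 0.0312, FDR 0.424) in edgeR. None of the 9 genes passed an FDR of 0.05 in this comparison, in edgeR or in DESeq2 (which gave no adjusted p-value for Cfb). Of all genes, 0.0588% passed in edgeR. An unadjusted edgeR p-value under 0.05 was seen in 3 of the 9 genes (C3, Cfb and C3ar1). The share of all genes under that p-value was not counted. In none of the 9 did the MBV and fluvastatin libraries separate, compared to 16.4% of all genes. Without MBV replicate 3, the differences were 0.74 for C3 and 0.01 for Cfb.

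MBV replicate 3 also had the highest level of 6 of 8 monocyte markers. Ccr2, the chemokine receptor of inflammatory monocytes, was at 9.50 CPM there and at 0.273 to 2.38 in the other 8 libraries. Ly6c2 had 67 counts there and 0 to 2 in the others, and Plac8 75 counts there and 1 to 10 in the others. F13a1 and Vcan were the markers not highest there, and Vcan made up most of the summed list. The sum was 55.6 to 74.9 CPM with PBS, 11.7 to 45.4 after fluvastatin and 8.82 to 62.7 after MBV, and without Vcan, left out after its values were seen, it was 20.8 CPM in MBV replicate 3 and 0.868 to 4.37 CPM in the other libraries. Neutrophil markers summed to 1.78 to 6.03 CPM after MBV, compared to 2.05 to 2.55 with PBS and 1.61 to 1.98 after fluvastatin, and Ly6g, which defines neutrophils, was at 0 in all 9 libraries. The part of these cells in the C3 and Cfb values was not tested.

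**Figure D2:**
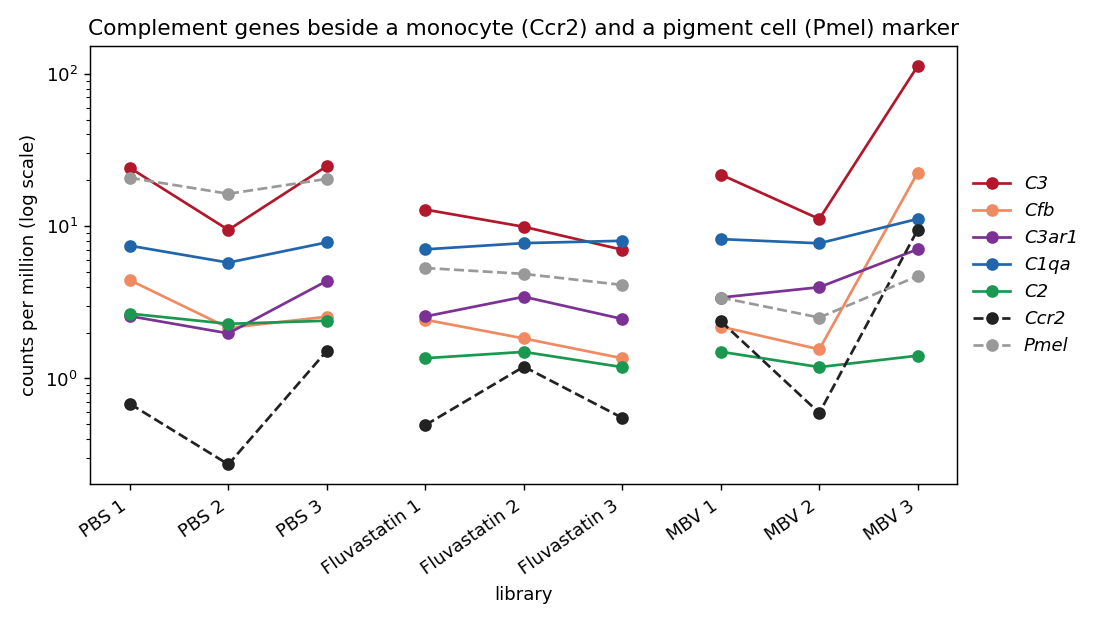
CPM (log scale) of 5 complement genes (solid lines) and of the markers Ccr2 of monocytes and Pmel of pigment cells (dashed lines) in the 9 libraries, with lines joining libraries of a group only to guide the eye. C3, Cfb and Ccr2 peak together in MBV replicate 3 (113, 22.5 and 9.50 CPM), whereas C2 follows the split between PBS and treated libraries that Pmel also shows (16.3 to 20.8 CPM with PBS and 2.51 to 5.31 CPM in the others). Summed Müller glia markers, not drawn, were also lower in every treated library than in any PBS library.

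The 5 genes outside complement most like the mean log2(CPM + 0.5) profile of C3 and Cfb, over the same 9 libraries and 15022 genes, were Lamc1 (Pearson r 0.969), Saa3 (0.967), Ptafr (0.953), 9930111J21Rik1 (0.952) and Csf3r (0.947). Saa3, an acute-phase protein, was at 4.88 CPM in MBV replicate 3 and at 0 to 0.423 in the others, and Csf3r, the receptor of the granulocyte growth factor, at 3.08 and at 0.731 to 1.24. Over the other 8 libraries the correlations were 0.676 to 0.855.

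Cfi encodes factor I, the protease that inactivates C3b and C4b (chromosome 3, 129629533 to 129668981, plus strand). It had 2.63, 2.73 and 2.89 CPM with PBS, 1.94, 1.87 and 2.37 after fluvastatin and 1.64, 2.83 and 1.45 after MBV. The fluvastatin libraries lay below the PBS libraries, and MBV replicate 2 lay among the PBS libraries. The log2 fold change was -0.42 after fluvastatin (SE 0.174, FDR 0.123) and -0.49 after MBV (SE 0.252, FDR 0.189) compared to PBS in edgeR. Without MBV replicate 2, the latter was -0.83 (FDR 0.0251), without MBV replicate 1 it was -0.37 (FDR 0.412) and without MBV replicate 3 it was -0.33 (FDR 0.345).

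C3ar1 encodes the receptor of C3a, found on myeloid cells (chromosome 6, 122824097 to 122833120, minus strand). It had 2.57, 1.98 and 4.37 CPM with PBS, 2.55, 3.44 and 2.46 after fluvastatin and 3.40, 3.97 and 7.06 after MBV. Its order of libraries resembled that of the C1q genes, with the lowest value in PBS replicate 2 and the highest in MBV replicate 3. The log2 fold change was 0.69 after MBV (SE 0.336, 95% interval -0.07 to 1.45, FDR 0.169) and -0.06 after fluvastatin (SE 0.274, FDR 0.900) compared to PBS, and 0.76 between MBV and fluvastatin (p-value 0.0209, FDR 0.403), in edgeR. Without MBV replicate 3, it was 0.31 compared to PBS and 0.38 compared to fluvastatin, and without PBS replicate 3 it was 1.06 after MBV compared to PBS (FDR 0.0510).

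**Figure D3:**
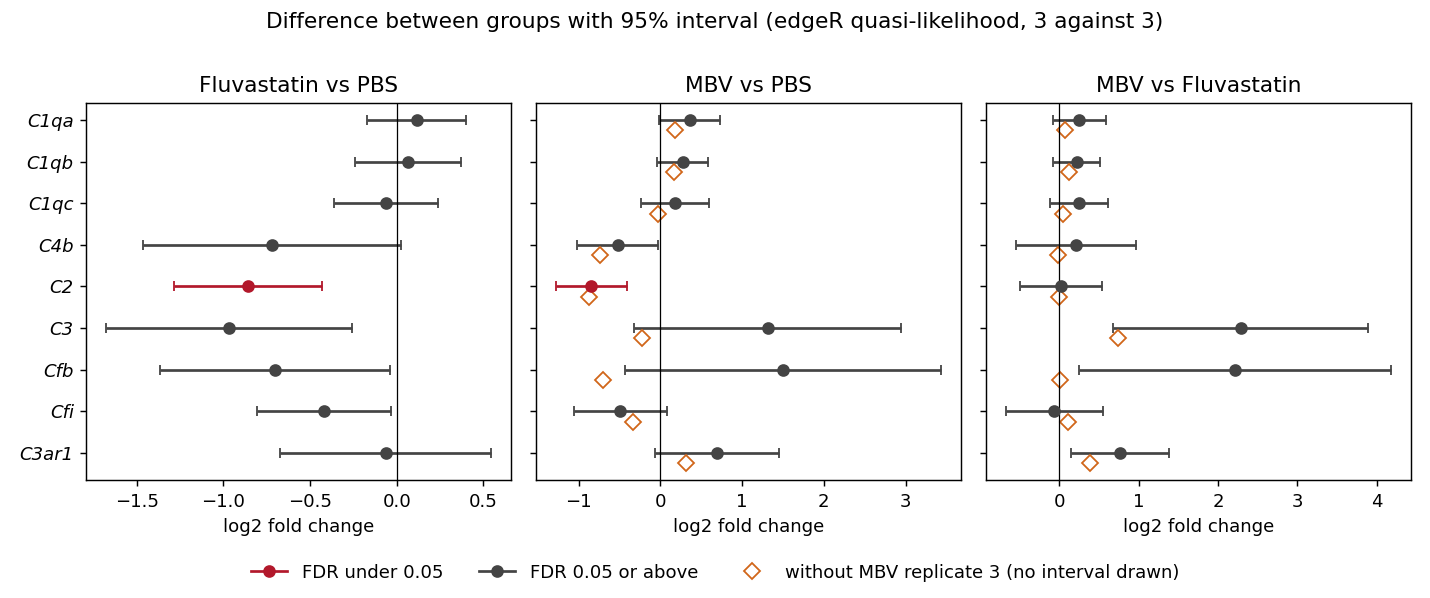
Log2 fold changes (horizontal axis, points) with 95% intervals (bars) of the 9 complement genes in the 3 comparisons, each of 3 libraries against 3, with open diamonds for the value without MBV replicate 3. C2 after fluvastatin (-0.86) and after MBV (-0.85) compared to PBS are the values past an FDR of 0.05, and the diamonds of C3 and Cfb lie far from their points.

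Per kb of exon of the canonical transcript, C4b was the most abundant of the 9 transcripts with PBS at 11.3 ± 3.53 CPM per kb (SD, n = 3). C1qa followed at 6.45 ± 1.01, C1qc at 5.37 ± 1.07, C3 at 3.77 ± 1.68 and C1qb at 2.99 ± 0.511 CPM per kb. Cfi was at 1.26 ± 0.0590, C2 at 0.921 ± 0.0735, Cfb at 0.908 ± 0.362 and C3ar1 at 0.593 ± 0.249 CPM per kb. The PBS libraries of neighbours in this order overlapped for 5 of 8 pairs, and they did not for C4b and C1qa, C1qb and Cfi, or Cfi and C2. After fluvastatin C1qa (6.99 ± 0.460) and C4b (6.85 ± 3.95) stood first, and C2 (0.507 ± 0.0581) last. After MBV the first place of C3 (9.42 ± 10.8 CPM per kb) rested on MBV replicate 3, and C2 was again last (0.514 ± 0.0603). The median log2 fold change of the 9 genes was -0.42 after fluvastatin and 0.27 after MBV compared to PBS, and 0.25 between MBV and fluvastatin, and that of all genes tested was -0.007, 0.010 and 0.011. In the 5 classical genes it was -0.06, 0.18 and 0.21, and in C3 and Cfb -0.84, 1.41 and 2.25, in the same order of comparisons. Without MBV replicate 3, the medians after MBV compared to PBS were -0.23 in the 9 genes, -0.03 in the classical genes and -0.46 in C3 and Cfb. Compared to fluvastatin they were 0.07, 0.04 and 0.37 without it.

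A wider list of complement genes named 58 genes with the 9 included, of which 57 had a row in the tables. Of the 48 others, 14 had 3 counts or fewer in every library, and Mbl1, C6, C9, Cfhr4, Cd55b and Vsig4 were among those at 0 in all 9 libraries. A count of 0 allows up to 3 counts, for counting error only. Of the lytic end of the cascade, only C8g reached a mean of 10 counts. After fluvastatin, compared to PBS, 5 of 50 genes tested passed an FDR of 0.05, with Csmd2, Susd4 and Cd93 higher and C2 and Colec12 lower. After MBV, compared to PBS, 7 of 50 passed, with Cfp, Csmd2, Susd4 and Cd93 higher and C2, Clu and Vtn lower. Both shares lay below those of all genes (19.6% and 26.1%). Of the 50, 34 reached a mean of 10 counts, and shares among genes of like counts were not compared. Between MBV and fluvastatin, 0 of 48 passed in edgeR and in DESeq2, and 13 had an unadjusted p-value under 0.05 in edgeR. The share of all genes under that p-value was not counted, so the 13 cannot be set against a background.

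Cfp encodes properdin, which stabilises the alternative pathway enzyme. It had 5.49, 6.00 and 5.13 CPM with PBS, 8.65, 7.10 and 6.49 after fluvastatin and 9.03, 9.77 and 10.7 after MBV. It rose by 0.81 on the log2 scale after MBV (SE 0.109, FDR 0.00125) and had a value of 0.42 after fluvastatin (SE 0.133, FDR 0.0514) compared to PBS in edgeR. Unlike those of C3 and Cfb, the MBV libraries of Cfp lay close together, and Cfp passed after MBV in each of 14 fits of that comparison, those without a replicate included.

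Csmd2, a neuronal transmembrane protein with CUB and sushi domains, had 44.6 to 55.2 CPM with PBS, 69.9 to 74.5 after fluvastatin and 73.0 to 94.6 after MBV. It rose by 0.57 (SE 0.0749, FDR 0.00131) and 0.77 (SE 0.103, FDR 0.00127) on the log2 scale in edgeR. Susd4, another sushi domain protein, rose by 0.19 (FDR 0.0300) and 0.21 (FDR 0.0182), from 42.8 to 45.7 CPM with PBS to 49.1 to 52.8 and 50.4 to 54.0. Cd93, a surface protein of endothelial and myeloid cells, rose by 0.89 (FDR 0.0431) and 0.94 (FDR 0.0160), from 4.13 to 6.46 CPM with PBS to 5.85 to 13.5 and 7.81 to 13.2. Csmd2 passed in each of 14 fits of both comparisons. Susd4 did so in 9 after fluvastatin and 11 after MBV, lost without any 1 PBS library or Fluvastatin replicate 2 or 3 in the former and without PBS replicate 1 or 3 or MBV replicate 2 in the latter. Cd93 did so in 8 and 12, lost without PBS replicate 1 or 2 in both and, after fluvastatin, also without Fluvastatin replicate 2 or 3, with a minimum of more than 10 counts in 2 libraries and in 1 fit of all 9 libraries. Ganglion cell markers, 6 genes, summed to 527 to 651 CPM with PBS, 585 to 783 after fluvastatin and 547 to 670 after MBV.

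The proteins of Clu and Vtn bind the lytic complex in plasma. Clu had 693 to 824 CPM with PBS, 559 to 700 after fluvastatin and 594 to 667 after MBV, and fell by 0.26 after MBV (SE 0.0696, FDR 0.0245) on the log2 scale in edgeR. Vtn had 492 to 520, 445 to 486 and 316 to 463 CPM, and fell by 0.43 after MBV (SE 0.115, FDR 0.0238) compared to PBS. Without MBV replicate 3, Vtn was also called between MBV and fluvastatin, at -0.47 (FDR 0.0161). The 5 photoreceptor markers summed to 10774 and 9479 CPM in MBV replicates 1 and 2 and to 13389 CPM in MBV replicate 3, and the part of photoreceptors in the Vtn values was not tested. Colec12, a collectin of vessels and stroma, fell by 1.48 after fluvastatin (SE 0.456, FDR 0.0449), with 5.87 to 7.70 CPM with PBS and 5.15, 0.972 and 1.23 after fluvastatin. Among the fluvastatin libraries, replicate 1 was again the nearest to PBS. After MBV, Colec12 had 1.02, 1.51 and 5.475 CPM. Its log2 fold change compared to PBS was -1.37 (SE 0.477, FDR 0.0632) in edgeR. The calls of Clu (in 9 of 14 fits), Vtn (11) and Colec12 (6) were lost without PBS replicate 1. That of Clu was also lost without PBS replicate 3 or MBV replicate 1 or 2 and in the fit of all 9 libraries, that of Vtn without PBS replicate 2 or MBV replicate 1, and that of Colec12 without each library but Fluvastatin replicate 1, in DESeq2, with the same count filter and in the fit of all 9 libraries. The sum of 6 reactive glia markers was 307 to 528 CPM with PBS, 399 to 621 after fluvastatin and 360 to 714 after MBV.

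**Figure D4:**
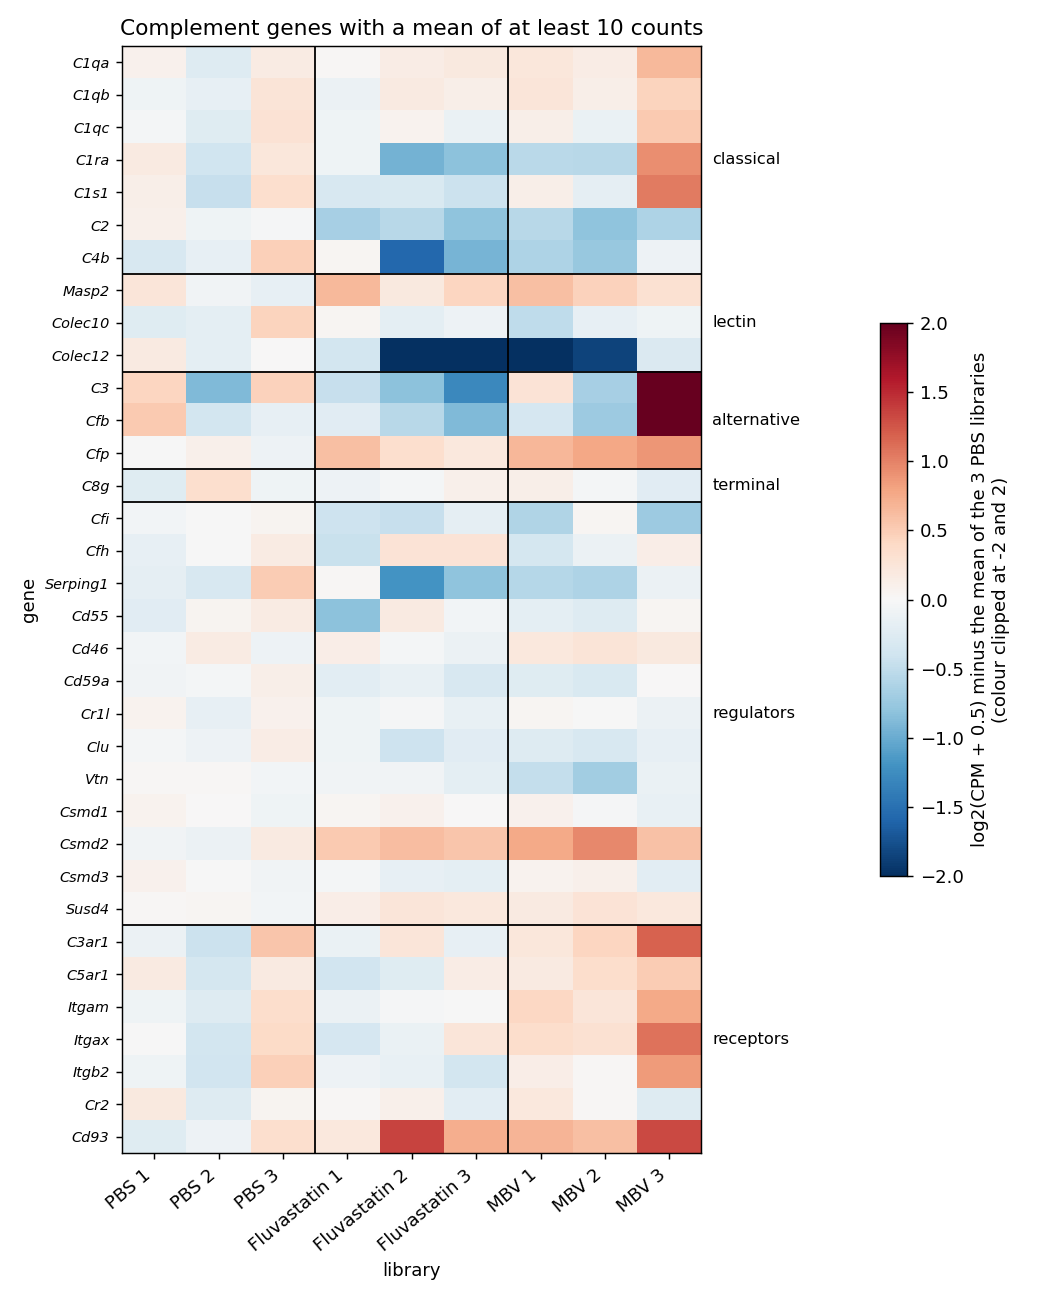
Difference in log2(CPM + 0.5) from the mean of the 3 PBS libraries (colour, clipped at -2 and 2) for the 34 complement genes with a mean of at least 10 counts (rows, grouped by pathway) in the 9 libraries (columns). Cfp and Csmd2 are higher and C2 lower in all 6 treated libraries, whereas C3 and Cfb reach the upper end of the scale in MBV replicate 3 alone.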

How the data were processed

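Whole retina RNA was sequenced 2 days after ONC from 12 samples in 4 groups. The authors aligned the reads to GRCm39 in CLC Genomics Workbench and deposited raw counts per gene, without normalization, in 4 tables of 25655 genes. Count columns that name a library were found for 9 libraries (3 PBS, 3 fluvastatin and 3 MBV). The 6 count columns of the combined treatment name no library and were not used, nor were the columns of fold changes, p-values and FDRs from the authors' own comparisons.

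Genes with at least 1 count in the 6 libraries compared (18818, 18897 and 18721 genes) were scaled by TMM and tested with edgeR 4.0.16 (R 4.3.3) by its quasi-likelihood F-test and adjusted by Benjamini-Hochberg, called at an FDR under 0.05 with no fold minimum. DESeq2 1.42.0, other scalings, a count filter, a replicate block, 1 fit of all libraries and fits without each replicate were alternatives. The coefficient of variation between replicates was 7.78%, 8.57% and 10.1%. The depth was 21349516 to 30992040 counts, and counts carry no molecular identifiers. CPM values use TMM factors of the 9 libraries. The fit was tested on simulated data. Exon lengths are from GENCODE on GRCm39, gene positions are those deposited with the counts, and promoters are from RefSeq on GRCm38.p6. Python 3.11.15, pandas 2.3.3, scipy 1.17.1 and matplotlib 3.10.9 were also used. No pair of replicates agreed within sampling noise.

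The text names the 9 genes, the genes of the wider complement list that passed (at most 12) or were at 0, and the 5 genes most like each profile. The members and the gene lists, 10 of them of cell type markers, were chosen with earlier results of these data known. Some genes of these lists are not reported here.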

Additional observations from a re-analysis of the deposited data

How the results depend on the processing

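The direction and side of the threshold held in 335 of 369 alternative values of the log2 fold changes of the 9 genes. DESeq2 gave Cfb no adjusted p-value with MBV compared to PBS or to fluvastatin. These values, among the 335, were counted as not passing. Of the rest, 10 newly passed and 2 (C2 without PBS replicate 1) no longer passed. Of 82 alternative counts of calls, 61 lay within 1.5 times those reported and 21 did not. All 22 changes of direction came with a library left out, and none passed an FDR of 0.05. With fluvastatin compared to PBS, these were C1qa (-0.01) and C1qb (-0.02) without PBS replicate 2, C1qc (0.10) and C3ar1 (0.32) without PBS replicate 3, and C3ar1 without Fluvastatin replicate 1 (0.01) or 3 (0.02). With MBV compared to PBS they were C1qc (-0.03), C3 (-0.23) and Cfb (-0.70) without MBV replicate 3, and -0.02, -0.22 and -0.69 in 1 fit of the other 8 libraries, an alternative chosen after seeing the data. Between MBV and fluvastatin they were C2 (-0.07, -0.05 and -5e-05 without Fluvastatin replicate 3, MBV replicate 1 or MBV replicate 3), C4b (-0.10 without Fluvastatin replicate 2, -0.02 without MBV replicate 3 and in the 8-library fit) and Cfi (0.04, 0.05 and 0.11 without Fluvastatin replicate 3, MBV replicate 1 or MBV replicate 3, and 0.10 in the 8-library fit). With a replicate left out, the other end of the range was 0.20 for C1qa, 0.21 for C1qb, -0.18 for C1qc and -0.29 for C3ar1 after fluvastatin and 0.34 for C1qc, 1.78 for C3 and 1.99 for Cfb after MBV compared to PBS, and 0.11 for C2, 0.77 for C4b and -0.41 for Cfi between MBV and fluvastatin.

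With fluvastatin compared to PBS, 0 to 4 of the 9 genes and 1 to 12 of the wider list passed when a replicate was left out. Of the 9 genes, 0 passed without PBS replicate 1 and 4 (C2, C4b, C3 and Cfb) without Fluvastatin replicate 1. Over all genes, 1726 of 18647 passed without PBS replicate 1 and 4402 of 18725 without Fluvastatin replicate 1. A minimum of more than 10 counts in 2 libraries left 3 of the wider list, and 3784 of 15129 of all genes. With MBV compared to PBS the ranges were 0 to 2 and 2 to 13, with the highest of the wider list without MBV replicate 3. Over all genes, 2711 of 18740 passed without PBS replicate 1 and 5664 of 18793 without MBV replicate 3. Between MBV and fluvastatin the wider list ranged from 0 to 1 (Vtn, also 1 in the 8-library fit). The cause was not tested.

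With a replicate block, 3 of the 9 genes passed with fluvastatin (C2, C3 and Cfb) and 3 with MBV (C2, C4b and C3ar1) compared to PBS. Of the wider list, 10 and 12 passed. Over all genes, 3727 of 18818 passed with fluvastatin and 3876 of 18897 with MBV in the same fits. Same-numbered libraries did not deviate together (correlations of -0.239 to 0.128 over 9 pairs, compared to -0.201 to 0.246 over 18 other pairs). No pairing by number was seen, but with 3 libraries a group these correlations cannot exclude one. Over all genes, the 11 calls between MBV and fluvastatin became 126 in DESeq2, 27 in 1 fit of all 9 libraries, 5 with the count filter, 0 with the replicate block, 0 to 197 with a replicate left out and 262 in the 8-library fit. Leaving out PBS replicate 1 took the calls from 3687 to 1726 with fluvastatin and from 4937 to 2711 with MBV compared to PBS. Comparisons with the combined treatment, planned as alternatives and tests, were not run. C2 had 26 to 82 counts per library, which limits the precision of its value.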
